A study of Mus musculus with 2 samples.

Results

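The transcription factors that build and maintain pancreatic acinar cells were examined by DNase-seq in 2 libraries labelled as thymus. The genes were Ptf1a, Rbpjl, Bhlha15, Nr5a2, Gata4, Gata6 and Xbp1, 7 of the 21938 protein-coding genes of the GENCODE annotation of mm10, each taken with its gene body and 50 kb on either side. They were chosen by name after peaks of these same libraries had been seen, so their values are given as a description and no test was made on them. DNase-seq maps open chromatin, the stretches of DNA that the nuclease DNase I can cut. Both libraries are labelled as thymus of 36-day-old male B6CASTF1/J mice, F1 hybrids of C57BL/6J and CAST/EiJ without a transgene or treatment in the labels. They form 1 group, and each is called here by its label, replicate 1 or replicate 2. The labels give the mice separate numbers and a common donor identifier, and do not say whether 1 mouse or several were used.

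Acinar cells make and store the digestive enzymes of the pancreas. Ptf1a, a basic helix-loop-helix factor, pairs with an E protein and with Rbpjl (or its relative Rbpj) in the PTF1 complex, which binds an E-box next to a TGGGAA-type site at enzyme genes. Bhlha15, also called Mist1, shapes the secretory granules, Nr5a2 is an orphan nuclear receptor that acts with PTF1 at enzyme genes, Gata4 and Gata6 are zinc finger factors of the foregut endoderm and pancreas, and Xbp1 drives the enlargement of the endoplasmic reticulum in secretory cells. Outside the pancreas Gata4 and Gata6 are known from heart, gut and gonad, Nr5a2 from liver and gut, and Xbp1 from plasma cells and from secretory and stressed cells in general. On mm10 the annotation places Ptf1a (ENSMUSG00000026735.2) at chr2:19445663-19447501 on the plus strand, Rbpjl (ENSMUSG00000017007.9) at chr2:164403141-164415448 on the plus strand, Bhlha15 (ENSMUSG00000052271.7) at chr5:144190286-144194441 on the plus strand and Nr5a2 (ENSMUSG00000026398.14) at chr1:136842571-136960448 on the minus strand. It places Gata4 (ENSMUSG00000021944.15) at chr14:63198922-63271692 on the minus strand, Gata6 (ENSMUSG00000005836.10) at chr18:11052064-11085635 on the plus strand and Xbp1 (ENSMUSG00000020484.18) at chr11:5520659-5525893 on the plus strand.

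The tissue label was checked against marker genes. A promoter peak is a peak within 1 kb of an annotated transcript start. Of all protein-coding genes, 63.1% had one in replicate 1 and 60.1% in replicate 2. Of 15 T cell identity genes, 2 had a promoter peak in replicate 1 and 15 in replicate 2, with summed signals of 8.29 in replicate 1 and 102 in replicate 2. Cd3d, Cd3e, Cd3g, Cd4, Cd8a and Cd8b1 were among the 13 without one in replicate 1. Of 22 genes of acinar digestive enzymes and granule proteins, 21 had a promoter peak in replicate 1 and 2 in replicate 2, with summed signals of 104 in replicate 1 and 5.72 in replicate 2. The data of the library labelled replicate 1 therefore go against its tissue label, and every value below is given for each library on its own. The part of this difference in the values of the 7 genes was not tested. In bulk tissue, fewer cells of a type and less open chromatin per cell cannot be told apart.

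The sequences that carry the pattern are given first. Those open in replicate 1 alone, or ranked higher there, are the Ptf1a promoter up to its start (chr2:19445441-19445662), a Ptf1a downstream peak (chr2:19455941-19456140), the strongest Rbpjl distal peak (chr2:164401721-164401920), the Bhlha15 promoter up to its start (chr5:144190161-144190285), the strongest Bhlha15 distal peak (chr5:144163201-144163380), the strongest Nr5a2 distal peak (chr1:136934181-136934360) and an intronic Gata4 peak (chr14:63256001-63256200). A distal region open in both libraries is shown for Ptf1a (chr2:19414541-19414740), Gata4 (chr14:63195881-63196080) and Xbp1 (chr11:5485341-5485540). All are the plus strand of the mm10 reference, which is the C57BL/6J genome, so CAST alleles are not shown. Capitals mark bases inside a deposited footprint of replicate 1, a footprint being a short stretch that the caller scored as protected from cutting within open chromatin.
Ptf1a promoter: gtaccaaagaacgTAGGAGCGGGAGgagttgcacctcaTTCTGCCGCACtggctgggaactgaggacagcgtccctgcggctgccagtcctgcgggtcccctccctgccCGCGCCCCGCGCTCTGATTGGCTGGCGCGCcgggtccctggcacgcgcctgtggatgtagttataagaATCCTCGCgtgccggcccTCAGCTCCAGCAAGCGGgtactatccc
Ptf1a downstream peak: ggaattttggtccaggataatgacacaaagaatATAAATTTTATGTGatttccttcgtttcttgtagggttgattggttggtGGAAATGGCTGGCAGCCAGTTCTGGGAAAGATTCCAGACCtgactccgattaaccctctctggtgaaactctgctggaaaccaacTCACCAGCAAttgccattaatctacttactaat
Rbpjl upstream peak: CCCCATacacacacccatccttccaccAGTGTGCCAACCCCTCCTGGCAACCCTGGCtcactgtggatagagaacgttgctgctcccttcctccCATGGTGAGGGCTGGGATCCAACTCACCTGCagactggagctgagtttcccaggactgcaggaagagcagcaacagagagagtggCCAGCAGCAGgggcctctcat
Bhlha15 promoter: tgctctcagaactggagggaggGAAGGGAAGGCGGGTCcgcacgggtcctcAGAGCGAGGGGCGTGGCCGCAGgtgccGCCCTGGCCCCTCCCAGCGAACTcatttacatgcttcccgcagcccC
Bhlha15 upstream peak: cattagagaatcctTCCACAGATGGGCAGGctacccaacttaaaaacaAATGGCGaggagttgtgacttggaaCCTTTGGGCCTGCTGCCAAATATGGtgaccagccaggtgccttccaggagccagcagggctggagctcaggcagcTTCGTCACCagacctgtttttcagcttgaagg
Nr5a2 intronic peak: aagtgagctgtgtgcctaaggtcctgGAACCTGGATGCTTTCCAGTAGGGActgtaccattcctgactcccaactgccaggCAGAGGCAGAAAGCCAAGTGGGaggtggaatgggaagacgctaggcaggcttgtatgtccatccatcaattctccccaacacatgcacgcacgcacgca
Gata4 intronic peak: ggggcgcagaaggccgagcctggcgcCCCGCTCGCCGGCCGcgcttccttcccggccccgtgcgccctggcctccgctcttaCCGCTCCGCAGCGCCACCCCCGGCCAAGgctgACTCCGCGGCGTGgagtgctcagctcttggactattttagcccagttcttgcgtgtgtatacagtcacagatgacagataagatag
Ptf1a shared region: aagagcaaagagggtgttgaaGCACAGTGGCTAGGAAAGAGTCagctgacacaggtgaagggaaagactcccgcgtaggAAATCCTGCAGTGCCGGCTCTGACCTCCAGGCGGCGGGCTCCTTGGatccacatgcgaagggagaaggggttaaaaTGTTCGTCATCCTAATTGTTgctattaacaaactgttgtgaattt
Gata4 shared region: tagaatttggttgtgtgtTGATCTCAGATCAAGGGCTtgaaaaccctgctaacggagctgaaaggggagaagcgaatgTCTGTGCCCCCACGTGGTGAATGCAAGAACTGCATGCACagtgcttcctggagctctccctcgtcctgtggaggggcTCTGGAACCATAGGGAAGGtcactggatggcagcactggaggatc
Xbp1 shared region: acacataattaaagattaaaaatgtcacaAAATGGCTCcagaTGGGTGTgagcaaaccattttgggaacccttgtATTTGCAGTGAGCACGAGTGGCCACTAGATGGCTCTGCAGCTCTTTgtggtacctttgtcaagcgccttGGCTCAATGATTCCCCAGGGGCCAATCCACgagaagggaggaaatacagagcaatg

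At their promoters the 7 genes fell into 3 patterns. Ptf1a and Gata4 had a promoter peak in replicate 1 alone, Nr5a2 and Gata6 had a peak of moderate signal there and a trace in replicate 2, and Rbpjl, Bhlha15 and Xbp1 had a clear peak in both. All 7 had a promoter peak in replicate 1 and 5 of 7 in replicate 2, against 63.1% of all protein-coding genes in replicate 1 and 60.1% in replicate 2. Both libraries had the peak at 5 members (56.7% of all genes), replicate 1 alone at 2 (6.41%), replicate 2 alone at 0 (3.37%), and neither at 0 (33.5%). The members were chosen with these peaks known, so nothing is read from the shares.

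Signal is the height the authors deposited for a peak, and its percentile is its rank among all peaks of the same library, which avoids the scaling between libraries that the sources do not give. For Ptf1a the strongest promoter peak had a signal of 6.95 in replicate 1, at percentile 95.9, against no peak in replicate 2. That peak (chr2:19445441-19445780) spanned the single annotated start of Ptf1a and held 9 footprints, 5 of them within the printed sequence. A second, broad peak of 780 bp lay over the gene body with a signal of 1.30 and no footprint. In the table of bases with a false discovery rate (FDR) below 0.05, all 2001 bases within 1 kb of the Ptf1a start were listed in replicate 1, against 0 in replicate 2.

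Rbpjl, the acinar partner of Ptf1a, had promoter signals of 6.29 in replicate 1 and 2.97 in replicate 2, at percentile 94.5 in replicate 1 and 68.3 in replicate 2. Bhlha15 had 5.97 in replicate 1 (percentile 93.7) and 3.78 in replicate 2 (percentile 74.3). Both promoters were thus open in both libraries and ranked higher in replicate 1. At the Bhlha15 start the peak of replicate 1 held 7 footprints and that of replicate 2 held 6, and at Rbpjl there were 5 in replicate 1 and 3 in replicate 2. Within 1 kb of the starts the FDR-listed stretch was longer in replicate 1, with 1523 of 2069 bases at Rbpjl and all 2001 at Bhlha15, against 365 at Rbpjl and 550 at Bhlha15 in replicate 2.

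Nr5a2 has 6 annotated starts, and its strongest promoter peak (chr1:136949301-136949800, signal 2.59, percentile 75.6) lay over an internal start 10.9 kb into the gene in replicate 1. Replicate 2 had a single Nr5a2 promoter peak, 79 bp wide, with a signal of 0.424 at percentile 2.91. Replicate 1 had 9 Nr5a2 promoter peaks, of which 2 lay at the gene's 5′ end with signals of 1.43 and 1.27. The first start was therefore less accessible than the internal one in that library.

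Gata4 likewise had its strongest promoter peak over an internal start, 26.3 kb into the gene (chr14:63245161-63245560, signal 4.48, percentile 88.7), in replicate 1. Its 3 peaks around the 5′ end had signals of 1.50 to 2.08 there. No Gata4 promoter peak was in the shorter list of replicate 2, while its longer list held one with a signal of 0.378. Gata6 had 10 promoter peaks over its 6 starts in replicate 1, the strongest at 3.49 (percentile 83.2), and 1 in replicate 2 at 0.555 (percentile 7.81). In the promoter windows of Gata6, 6190 of 6976 bases were FDR-listed in replicate 1, against 559 in replicate 2.

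Xbp1 stood apart from the other members. Its strongest promoter peak had a signal of 11.6 in replicate 1 and 13.0 in replicate 2, at percentile 99.6 in replicate 1 and 94.7 in replicate 2, so the direction of the difference depended on whether signal or rank was used. The peak covered nearly the same bases in both libraries (chr11:5520761-5521020 in replicate 1 and chr11:5520801-5521020 in replicate 2), and its lowest FDR had a log10 of -808.5 in replicate 1 and -87.9 in replicate 2. All 7 members ranked higher in replicate 1 by percentile, which was so for 41.5% of all genes. That base includes the 33.5% of genes without a promoter peak in either library, which could not rank higher in one of them.

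**Figure D1:**
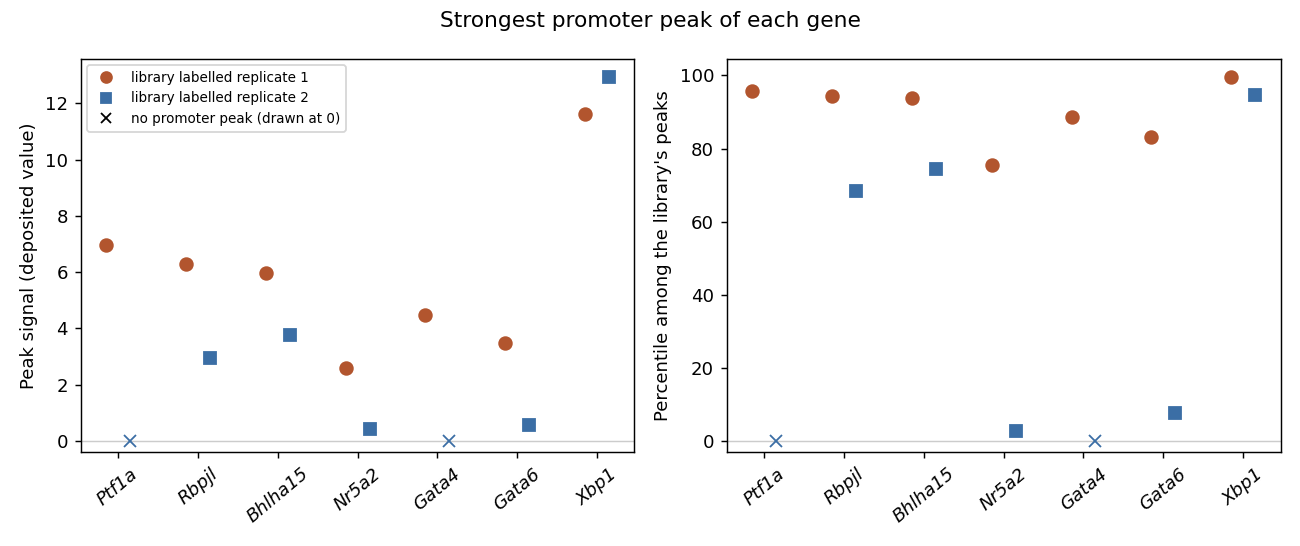
Strongest promoter peak of each gene, as deposited signal (left) and as percentile among all peaks of the library (right), with 1 point per library and crosses at 0 where no promoter peak was listed. Points of replicate 1 lie between percentiles 75.6 and 99.6, and those of replicate 2 reach from 2.91 to 94.7 with 2 genes missing.

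Distal peaks, those more than 1 kb from any transcript start, were far more numerous in replicate 1 than in replicate 2. Over the 7 domains, 948 kb in total, replicate 1 had 155 distal peaks and replicate 2 had 18, a ratio of 8.61. Across the genome there were 52339 in replicate 1 and 34595 in replicate 2, a ratio of 1.51. Every member had more distal peaks in replicate 1, as did 51.8% of all protein-coding genes. In replicate 1 there were 31 at Ptf1a, 24 at Rbpjl, 23 at Bhlha15, 17 at Nr5a2, 15 at Gata4, 9 at Gata6 and 36 at Xbp1. In replicate 2 there was 1 at Ptf1a and at Nr5a2, 2 at Bhlha15 and at Gata4, 4 at Rbpjl, 8 at Xbp1 and 0 at Gata6. The median over all protein-coding genes was 3 in replicate 1 and 2 in replicate 2. Gata6 thus had the smallest excess and Xbp1 the most distal peaks in both libraries.

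**Figure D2:**
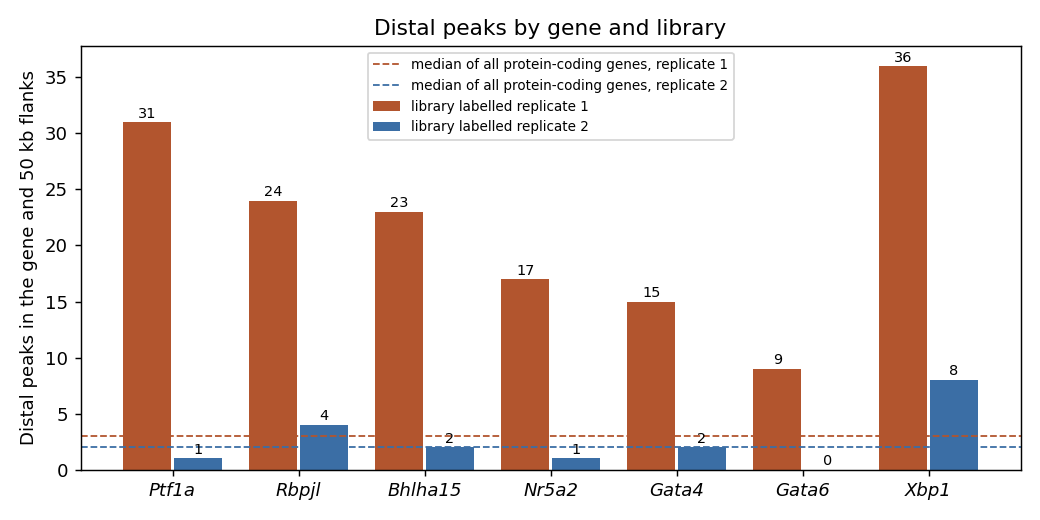
Number of distal peaks in each gene with 50 kb flanks, as 1 bar per library, with dashed lines at the median of all protein-coding genes (3 in replicate 1 and 2 in replicate 2). The bars of replicate 1 run from 9 at Gata6 to 36 at Xbp1, against 0 to 8 in replicate 2.

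The domains differ in length, and so the counts were also taken per 100 kb. In replicate 1 Xbp1 had 34.2 distal peaks per 100 kb, Ptf1a 30.4, Bhlha15 22.1, Rbpjl 21.4, Gata4 8.68, Nr5a2 7.80 and Gata6 6.74. In replicate 2 Xbp1 had 7.60, Rbpjl 3.56, Bhlha15 1.92, Gata4 1.16, Ptf1a 0.982, Nr5a2 0.459 and Gata6 0. The median gene had 2.62 in replicate 1 and 1.80 in replicate 2. In replicate 1 the domains of Nr5a2, Gata4 and Gata6 were thus the most sparsely covered. The difference in count placed Ptf1a highest among the members, with 30 more distal peaks in replicate 1, and 31 of all 21938 genes had a larger difference. Xbp1 followed with 28 (45 genes larger), Bhlha15 with 21 (120), Rbpjl with 20 (128), Nr5a2 with 16 (241), Gata4 with 13 (397) and Gata6 with 9 (848). Neighbouring genes share peaks, so these numbers of genes do not count separate regions.

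**Figure D3:**
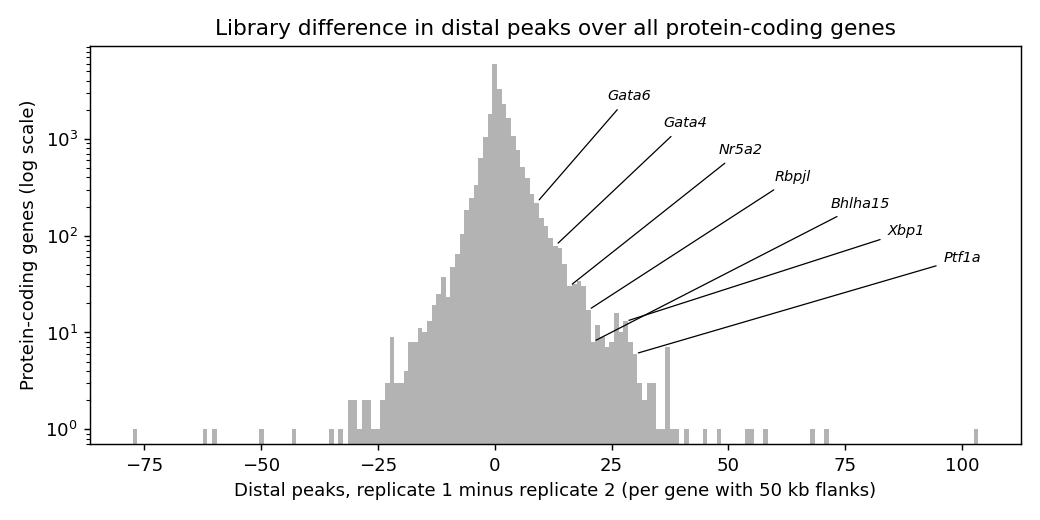
Number of protein-coding genes (log scale) by the difference in distal peaks, replicate 1 minus replicate 2, with the 7 genes marked. All 7 lie on the right side, from 9 at Gata6 to 30 at Ptf1a.

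At Ptf1a the distal peaks of replicate 1 lay in 4 separate runs, taking peaks no more than 5 kb apart together. The run at the gene held 15 peaks from 1.54 kb upstream to 12.2 kb downstream of the 5′ end, with a median signal of 1.14 and 45 footprints. Its strongest peak, the printed downstream peak 10.4 kb from the 5′ end, had a signal of 3.54 at percentile 83.5. A second run of 11 peaks lay 41.8 to 49.0 kb downstream in an intron of 4921504E06Rik, where the strongest peak (chr2:19490421-19490620) reached 3.96 at percentile 86.1. Upstream, 3 peaks lay 14.7 to 16.5 kb from the 5′ end and reached 3.35. An upstream enhancer through which PTF1 acts on Ptf1a itself is known in mice, and whether these peaks coincide with that enhancer was not tested. None of the peaks in these 3 runs overlapped a peak in the shorter list of replicate 2. In its longer list the peak of 3.35 (chr2:19429081-19429260) had a partner, and 147 of its 180 bases were FDR-listed in replicate 2. A peak of 1.32 in the 4921504E06Rik intron (chr2:19492266-19492560) also had a partner there.

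The remaining Ptf1a run, 2 peaks about 31.0 kb upstream, included the 1 region that replicate 2 shared. Its signal was 4.01 in replicate 1 and 3.19 in replicate 2, at percentile 86.4 in replicate 1 and 70.2 in replicate 2. This was the strongest distal peak of Ptf1a in both libraries and the only peak of the domain in the shorter list of replicate 2, with 3 footprints in each. Over the whole Ptf1a domain 22978 bases were FDR-listed in replicate 1, against 1056 in replicate 2.

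At Rbpjl the strongest distal peak of replicate 1 lay 1.32 kb upstream, with its midpoint in an intron of the neighbouring matrix protein gene Matn4 and its end in an exon of that gene. Its signal of 6.49 exceeded that of the Rbpjl promoter (6.29) in that library, and no peak overlapped it in replicate 2. A run of 9 peaks in the introns of Sdc4, a cell surface proteoglycan gene, 31.7 to 38.7 kb downstream, reached 4.23. In Sys1, which encodes a Golgi protein, a peak (chr2:164458701-164458980) reached 3.15. The 3 distal regions shared with replicate 2 were weaker than these. In the Rbpjl intron 4.73 kb downstream the signal was 2.20 in replicate 1 and 1.40 in replicate 2. Beyond the end of Rbpjl (chr2:164423090-164423290) it was 1.99 in replicate 1 and 0.917 in replicate 2, and in Sdc4, 38.3 kb downstream, 1.93 in replicate 1 and 2.10 in replicate 2.

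At Bhlha15 the distal peaks of replicate 1 split into 5 peaks in Lmtk2, 27.0 to 35.6 kb upstream, and 18 peaks from 7.09 kb upstream to 4.56 kb downstream of the 5′ end. The strongest were in the far group, at 5.77 for the printed upstream peak and 5.24 for a neighbour (chr5:144158741-144158940). Within the near group the strongest reached 4.77, 6.11 kb upstream (chr5:144184061-144184300). The printed upstream peak had no partner in the shorter list of replicate 2 and had one in its longer list. Of the 180 bases of this peak, 155 were FDR-listed in replicate 2, where 2 footprints overlapped it. One region in Lmtk2, 35.6 kb upstream (chr5:144154641-144154800), was shared, with signals of 2.63 in replicate 1 and 1.50 in replicate 2. The only other distal peak of replicate 2 lay in an exon of Tecpr1, 31.2 kb downstream, with a signal of 1.47.

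Nr5a2 and Gata6 shared no distal region between the libraries. At Nr5a2, 13 of the 17 distal peaks of replicate 1 lay in the gene's own introns, 8 of them in a run from 2.16 to 14.3 kb around the internal starts. The strongest were the printed intronic peak, with 3.19 at 26.2 kb, a peak 6.87 kb upstream with 3.13 (chr1:136967121-136967520) and one at 44.8 kb with 2.62 (chr1:136915521-136915700). Replicate 2 had a single distal peak of 0.524, 93.6 kb into the gene. At Gata6 one peak 30.7 kb upstream (chr18:11021281-11021480) reached 5.30, more than any Gata6 promoter peak, and held the lowest FDR of the domain in replicate 1. The next strongest Gata6 distal peaks were 2.19 and 1.51, so a single element stood out there.

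At Gata4 the strongest distal peak of replicate 1 was the intronic peak 15.6 kb into the gene, with a signal of 5.90 at percentile 93.5. Replicate 2 had a peak at the same place with a signal of 0.740 at percentile 16.6. The region was thus shared by overlap, and its rank was far apart in the libraries. By signal the order was the opposite at the Gata4 shared region downstream of the gene, 75.7 kb from the 5′ end, with 3.68 in replicate 1 and 4.90 in replicate 2, though not by rank, at percentile 84.4 in replicate 1 and 79.7 in replicate 2. The third strongest peak of replicate 1, 3.61 at 31.3 kb upstream (chr14:63302741-63303200), had no partner.

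Xbp1 had the most shared distal regions, 6 of the 13 over all members. Both libraries had peaks 35.2 kb upstream, with 3.91 in replicate 1 and 6.16 in replicate 2, and 34.8 kb upstream, with 4.43 in replicate 1 and 2.66 in replicate 2. The printed shared region was the strongest distal peak of the Xbp1 domain in replicate 2. The third strongest in replicate 1 lay 46.3 kb upstream (chr11:5474261-5474436), with 2.57 there and a partner of 1.93 in replicate 2. The third strongest in replicate 2 lay 20.2 kb upstream (chr11:5500341-5500580), with 2.13, and its partner in replicate 1 had 1.36. Around the 2 strongest replicate 1 had a run of 20 peaks, 17.0 to 35.2 kb upstream, with a median signal of 0.898, and 6 of these 20 had a partner. Another 13 weak peaks, with signals of 0.455 to 1.76, lay from 2.39 kb upstream to 12.6 kb downstream, and none of them had a partner. Xbp1 was therefore open in both libraries at its promoter and its strongest upstream elements, and the excess of replicate 1 lay in weaker peaks.

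**Figure D4:**
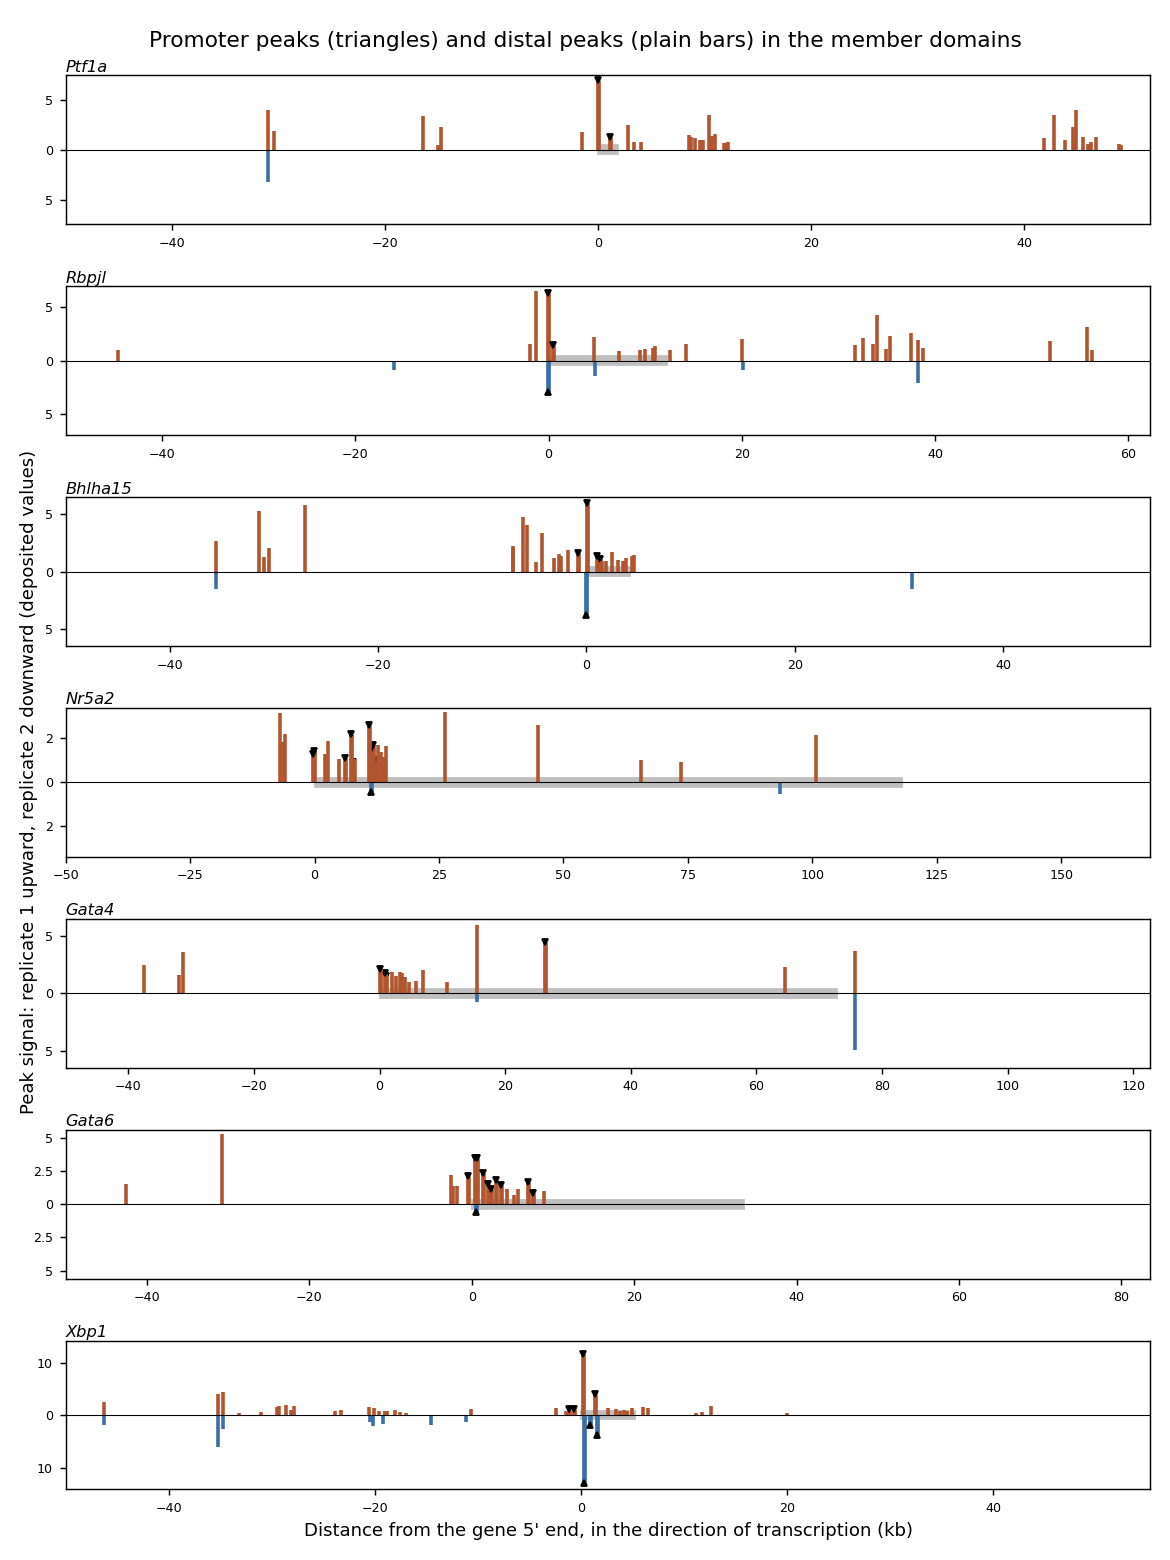
Promoter peaks (triangles) and distal peaks (plain bars) of each domain by distance from the gene's 5′ end in kb, with the signal of replicate 1 upward and of replicate 2 downward, the gene body in grey, and peaks at starts of other genes not drawn. Signal scales differ between panels, and most upward bars have no downward bar at the same place, the promoters of Rbpjl, Bhlha15 and Xbp1 being among those that do.

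Over all members, 14 of the 155 distal peaks (9.03%) of replicate 1 overlapped a peak of replicate 2, while 13 of 18 (72.2%) did in the other direction. Genome-wide 32.3% of the distal peaks of replicate 1 and 49.1% of those of replicate 2 had a partner. Of the 141 peaks without a partner, 10 (7.09%) held any base that the other library's FDR table listed. These 141 peaks had 40799 listed bases in their own library and 1157 in replicate 2. The remaining unpartnered peaks therefore held no base with an FDR below 0.05 in replicate 2. The 14 peaks with a partner were stronger than the 141 without, with a median signal of 2.38 against 1.37.

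By position, 68 of the 155 distal peaks of replicate 1 had their midpoint in an intron, 32 of them in the member's own, 23 in an exon and 64 outside protein-coding genes. Of the 18 in replicate 2, 6 were in an intron, 1 in an exon and 11 outside. Upstream of the 5′ end lay 60 of the 155 in replicate 1 and 11 of the 18 in replicate 2. The downstream side of each domain is the longer one, as it holds the gene body as well as 50 kb. These counts therefore do not show a preferred side. The 11 upstream peaks of replicate 2 included all 8 at Xbp1.

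Footprints and FDR-listed bases followed the peaks, from which they are not independent. The 7 domains held 877 footprints in replicate 1 and 176 in replicate 2, while the genome held 316358 in replicate 1 and 270843 in replicate 2. Within peaks of the domains there were 602 in replicate 1 and 102 in replicate 2, a ratio of 5.90. Promoter peaks held 112 in replicate 1 and 16 in replicate 2, and distal peaks 368 in replicate 1 and 39 in replicate 2, the rest lying in peaks at starts of neighbouring genes. Only 47 of the 602 overlapped a footprint of replicate 2, and 49 of the 102 overlapped one of replicate 1. FDR-listed bases made up 143 per kb of domain in replicate 1 and 23.7 per kb in replicate 2. The ratio of their totals was 6.04, against 1.49 genome-wide, and 6.66 at an FDR of at most 0.001.

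Motif letters were searched on both strands. In the Ptf1a downstream peak the RBPJ-type motif TGGGAA (chr2:19456045-19456050) lay wholly inside a footprint, which is the capital stretch around it in the printed sequence. In the Rbpjl upstream peak the E-box CACCTG (chr2:164401839-164401844) lay wholly inside a footprint. Neither region had a footprint in replicate 2. The Bhlha15 promoter had the same E-box, read as CAGGTG on the plus strand (chr5:144190231-144190236), with 3 of its 6 bases in footprints of each library. In the Ptf1a shared region CAGCTG had 1 base in a footprint of replicate 1 and 2 in replicate 2. The HNF1 motif GTTAAT there had 0 in replicate 1 and 5 in replicate 2. The RUNX motif TGTGGT in the Xbp1 shared region had 1 in replicate 1 and 0 in replicate 2. A further set of matches lay outside the footprints of both libraries. These were TGGGAA, on either strand, in the Ptf1a promoter, the Rbpjl upstream peak, the Nr5a2 intronic peak and the Xbp1 shared region. The others were CACCTG in the Bhlha15 upstream peak and the Ptf1a shared region, GTTAAT in the Ptf1a downstream peak, and the GATA motif AGATAA in the Gata4 intronic peak. These matches are descriptions of letters and not binding sites.

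The shared regions held other letters. The Ptf1a shared region contained CCTCCAGGCGGC (chr2:19414643-19414654) and the Xbp1 shared region CCACTAGATGGC (chr11:5485437-5485448), both matches to CC, any 3 bases, AG, any 2 bases and GGC, a loose form of the motif of the architectural protein CTCF. All 12 bases of each lay inside footprints of both libraries. That pattern was added after the sequences of the shared regions had been seen. In the Gata4 shared region ACGTGG and its reverse complement CCACGT overlapped each other within a footprint of both libraries.

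Such motifs are common. Of the 20 motifs searched, 9 had a higher share in the distal peaks of the members in replicate 1 than in all its distal peaks, and 11 did not. In windows of 150 bp at the centre of distal peaks of replicate 1, TGGGAA was found in 18.1% of the 155 member windows and 18.2% of all 52339. Member windows held the E-box CACCTG in 19.4%, the E-box CAGCTG in 11.6%, AGATAA in 3.87% and the NR5A2 core CAAGGTCA in 3.23%, where all windows held them in 21.3%, 16.7%, 7.52% and 2.00%. Of the 18 member windows of replicate 2, 9 held CACCTG, or 50%, against 22.3% of all 34595, and 1 held CAGCTG. The ETS motif ACAGGAAG was in 3 (16.7%, against 5.42% of all) and TGGGAA in 1 (5.56%, against 13.8%). These windows are few, and 8 of the 18 lie in the Xbp1 domain. The full PTF1 pattern, CANNTG followed after 4, 5 or 6 bases by TTTCCC, was in 0 of the 155 member windows and 0.835% of all in replicate 1. The loose CTCF pattern was in 7.74% of member windows and 20.8% of all in replicate 1. In replicate 2 it was in 22.2% of member windows and 28.4% of all. The stricter CTCF pattern was in 0.645% of member windows and 7.49% of all in replicate 1. In replicate 2 it was in 0 of the 18 member windows and 10.4% of all. In replicate 1 member windows and all windows had the same GC content of 51.3%. In replicate 2 it was 55.4% in member windows and 53.4% in all. In the RefSeq promoter table of mm10, from 250 bases before to 50 after a start, 6 promoters of 5 members were matched. CACCTG was present in 4 of the 6, at Bhlha15, Nr5a2, Rbpjl and Xbp1, and in 20.2% of all 32851 promoters.

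The partners and relatives of the members were read from lists of genes, by promoter peaks in each library. Over all protein-coding genes the share was 63.1% in replicate 1, 60.1% in replicate 2 and 56.7% in both. It was 6.41% in replicate 1 alone and 3.37% in replicate 2 alone. A list of 8 genes around the PTF1 complex held Rbpj, the E proteins Tcf3, Tcf4 and Tcf12, and the Id proteins Id1 to Id4, which bind E proteins and block their binding to DNA. All 8 had a promoter peak in both libraries. Rbpj had signals of 9.31 in replicate 1 and 11.8 in replicate 2. Of 19 other pancreatic and foregut endoderm regulators, 19 had a promoter peak in replicate 1 and 6 in replicate 2. Among the 13 open in replicate 1 alone were Sox9 (5.93), a progenitor and duct factor, Onecut1 (5.76), a factor of early pancreas and liver, Pdx1 (4.01), which specifies the pancreas, and the pioneer factor Foxa1 (3.90). Of 9 nuclear receptor partners and targets of Nr5a2, 6 (66.7%) had a promoter peak in replicate 1, near the share of all genes, and 1 in replicate 2. The corepressor Nr0b2 (5.80) and the receptor Hnf4a (3.45) had one in replicate 1 alone.

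The GATA relatives showed a mixed picture. Of 7 family members and cofactors, 5 (71.4%) had a promoter peak in each library, against 63.1% of all genes in replicate 1 and 60.1% in replicate 2. Gata2 (1.07) and Gata5 (0.533) had one in replicate 1 alone, and Gata1 (0.786) and Zfpm2 (0.223) in replicate 2 alone. Gata3, the family member needed for T cells, had 2.77 in replicate 1 and 13.6 in replicate 2. Around Xbp1, 19 of 20 genes of the unfolded protein response and secretory pathway had a promoter peak in both libraries, including Ern1, which encodes the enzyme that splices Xbp1 mRNA, with 8.84 in replicate 1 and 16.5 in replicate 2. Of 14 secretory granule and Bhlha15 target genes, 13 had a promoter peak in replicate 1 and 9 in replicate 2, and Dcxr (6.17) and Nupr1 (6.01) led the 4 open in replicate 1 alone.

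Several members are also used outside the pancreas, and so markers of those tissues were set beside them. The pancreatic duct list had promoter peaks at 9 of 10 genes in replicate 1 and 2 of 10 in replicate 2. The islet list had them at 9 of 16 in replicate 1 and 5 of 16 in replicate 2. Ins2, Gcg, Sst, Ppy and Iapp had no promoter peak in either library. The 6 islet genes with one in replicate 1 alone included Nkx6-1 (5.20), Pdx1 (4.01), Nkx2-2 (2.39), Isl1 (2.26) and, at 0.290, the hormone gene Ins1. In replicate 2 alone there were 2. In replicate 1 the heart list had 3 of 11, the stomach list 4 of 11, the small intestine list 2 of 9, the liver list 3 of 10, and the adrenal and gonad list 4 of 8. In replicate 2 the heart list had 3, the stomach list 2, the small intestine and liver lists 0, and the adrenal and gonad list 3. Plasma cell and B cell genes had 4 of 10 in replicate 1 and 5 of 10 in replicate 2, endothelial and stromal genes 4 of 10 in replicate 1 and 6 of 10 in replicate 2, and thymic epithelial genes 6 of 10 in replicate 1 and 5 of 10 in replicate 2. The share over all genes, 63.1% in replicate 1 and 60.1% in replicate 2, stands beside these counts, and some genes, such as Sox9 and Pdx1, stand in more than 1 list.

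The acinar enzyme genes, which the PTF1 complex acts on, had a median of 19.5 distal peaks in replicate 1 and 2 in replicate 2. Their strongest promoter peaks in replicate 1 alone were at Cel (8.54), Ctrb1 (8.19), Pnliprp2 (7.90) and Cela3b (6.70), which encode lipases and proteases. Cela1, which encodes an elastase, had a promoter peak in both libraries, with 5.92 in replicate 1 and 5.10 in replicate 2. In the T cell list the peaks of replicate 2 alone were led by Lat (10.9), Cd8b1 (10.2), Cd8a (10.1) and Bcl11b (9.04). Lck (5.72 in replicate 1, 11.8 in replicate 2) and Tcf7 (2.58 in replicate 1, 6.72 in replicate 2) had a promoter peak in both libraries.

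**Figure D5:**
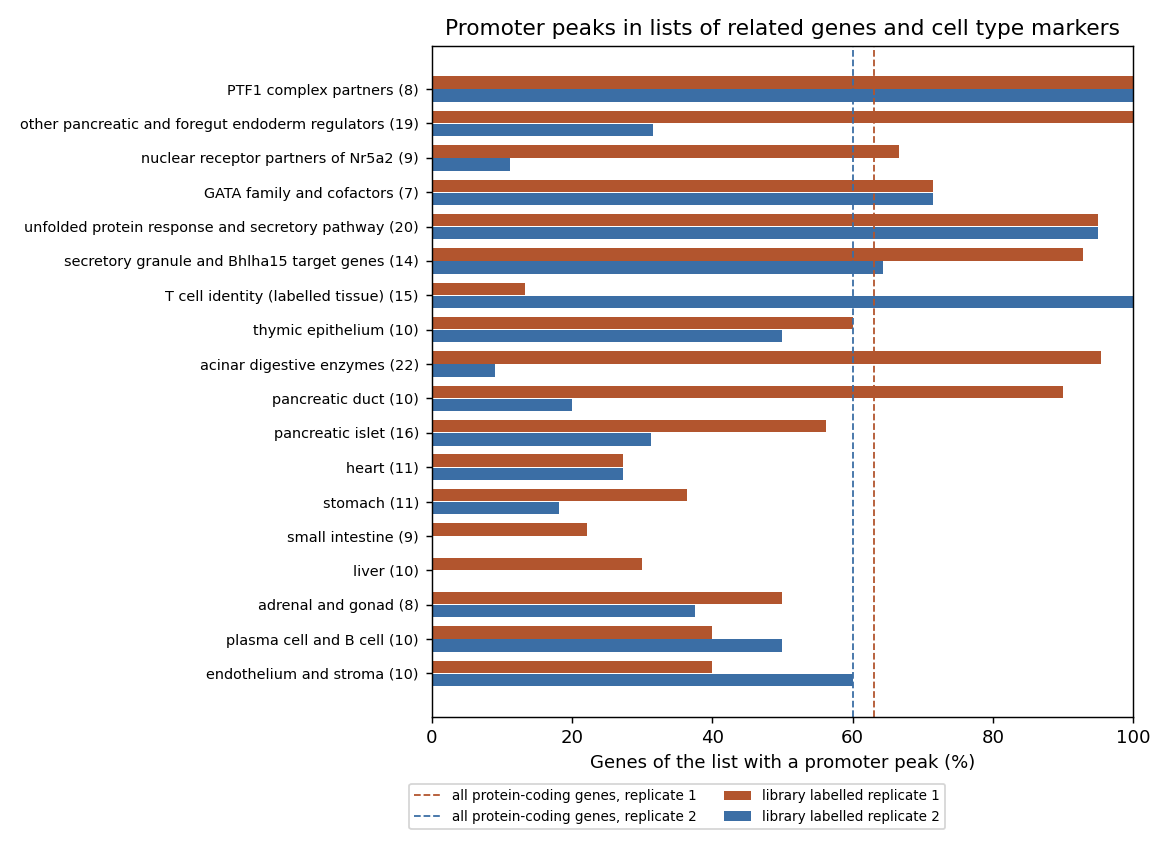
Share of the genes of each list (number matched in brackets) with a promoter peak, as 1 bar per library, with dashed lines at the share of all protein-coding genes (63.1% in replicate 1 and 60.1% in replicate 2). The T cell bars (13.3% in replicate 1, 100% in replicate 2) and the acinar enzyme bars (95.5% in replicate 1, 9.09% in replicate 2) show opposite orders.

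Genes with the profile most like that of the members were sought over 4 rank percentiles, promoter signal and distal peaks per 100 kb in each of the 2 libraries. The 5 nearest to the members' median were Ptpn3, Meis1, Appl2, Parva and Atp8b1, at distances of 8.47 to 12.9 percentile units. Meis1, a homeobox factor, had a promoter signal of 5.60 and 31 distal peaks in replicate 1, against 0.709 and 2 in replicate 2. The members themselves lay 19.0 (Bhlha15) to 71.9 (Xbp1) units from their own median, and 17 other genes were nearer to it than any member. The 7 genes therefore do not form a tight group by this measure, with Xbp1 farthest out.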

How the data were processed

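The authors deposited, per library, 2 peak lists with a signal in column 7 and a footprint list with a score in column 5. They also deposited a table of intervals with an FDR below 0.05, given in column 5. Per the labels the assembly was mm10. For the aligner, the callers of peaks and footprints and the scale of the signal, names and settings were not given in the sources used here. In every row the deposited score was 0.01, and it was not used. No file holds read counts, so the depth is unknown and no interval or floor was computed. The shorter lists (85367 peaks in replicate 1 and 60644 in replicate 2) were used, the longer ones (126824 in replicate 1 and 88164 in replicate 2) as an alternative. Overlapping peaks of a list (2385 in replicate 1 and 1149 in replicate 2) were counted as deposited.

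Genes came from GENCODE vM21 and sequence from GRCm38, and no peak lay beyond a chromosome end. An overlap of 1 bp or more made 2 peaks partners, and each set of partners became 1 shared region. The text names the members, the 3 strongest distal peaks of each member and library with the strongest shared region, up to 4 genes per list open in 1 library only, and the 5 nearest genes by profile. Other peaks, runs of peaks and list genes were chosen after their values were seen. The members, lists and motifs were chosen with earlier results of these data known. Python 3.11.15, numpy 2.4.6, pysam 0.24.0, samtools 1.23.1 and matplotlib 3.10.9 were used, and the counting was tested on simulated peaks. Alternatives were other flanks, promoter windows, peak lists, signal and FDR limits, and each library alone.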

Additional observations from a re-analysis of the deposited data

How the results depend on the processing

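Every member had more distal peaks in replicate 1 in all 7 peak and distance settings tried. The 155 and 18 distal peaks of replicate 1 and replicate 2 form a mean of 86.5, and either library alone gives 18 to 155, so the level rests on which library is read. For replicate 2 the count was 9 with 20 kb flanks, 36 with 100 kb flanks, 11 beyond 2500 bp from a start, 32 in the longer list and 9 among the stronger 50% of peaks. Shared regions numbered 5, 23, 8, 24 and 7 under those settings. For replicate 1 the count was 100 beyond 2500 bp and 90 among the stronger 50%, and the ratio with 100 kb flanks was 5.42. Members with a promoter peak in replicate 2, and in both, were 3 among the stronger 50% of peaks. Counting all footprints in the domains gave 176 in replicate 2 and 90 of replicate 1 shared, and 20 kb flanks gave 398, 48 and 22 shared. FDR-listed bases in replicate 2 were 14522 at an FDR of at most 0.001 and 11686 with 20 kb flanks. These settings count a smaller or larger set by construction. Of the 5 nearest genes by profile, 0 remained with distal peaks only. The Xbp1 promoter difference, replicate 1 minus replicate 2, was -1.34 in signal and 4.90 in percentile, and the cause was not tested. No paired analysis was possible because 1 group of 2 libraries gives no pair. With depth unknown, a missing peak means that none was listed, and not that the chromatin was closed.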

Other observations

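The neighbours of the members did not share one pattern. Matn4, beside Rbpjl, had a promoter peak of 3.60 in replicate 1 and none in replicate 2, and Neil2, beside Gata4, had none in replicate 1 and 3.44 in replicate 2. Lmtk2, whose introns hold the far upstream peaks of Bhlha15, had 8.22 in replicate 1 and 14.9 in replicate 2, Tecpr1 5.21 in replicate 1 and 11.2 in replicate 2, and Sys1, beside Rbpjl, 5.32 in replicate 1 and 10.1 in replicate 2. Sdc4, whose introns hold the downstream Rbpjl peaks, had 5.19 in replicate 1 and 2.10 in replicate 2. At 4921504E06Rik, which holds the far downstream Ptf1a run, the values were 1.72 in replicate 1 and 3.05 in replicate 2.

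Over all distal peaks, in windows of 150 bp, several of the 20 motifs searched were found at different shares in the 2 libraries, and others at similar shares. The PTF1 pattern was found in 0.835% of 52339 windows of replicate 1 and 0.220% of 34595 windows of replicate 2, the NR5A2 motif TCAAGGTCA in 0.604% in replicate 1 and 0.173% in replicate 2, the HNF4 motif CAAAGTCCA in 0.415% in replicate 1 and 0.159% in replicate 2, and AGATAA in 7.52% in replicate 1 and 4.66% in replicate 2. The RUNX motif TGTGGT was found in 11.5% in replicate 1 and 17.3% in replicate 2, and the ETS motif ACAGGAAG in 1.73% in replicate 1 and 5.42% in replicate 2. Similar shares were seen for the XBP1 motif ACGTGG, with 3.99% in replicate 1 and 4.05% in replicate 2. The E-box CACCTG had 21.3% in replicate 1 and 22.3% in replicate 2, and CAGCTG 16.7% in replicate 1 and 15.2% in replicate 2. Not all motifs searched are given here, and they did not all split between the libraries. The GC content of all windows was 51.3% in replicate 1 and 53.4% in replicate 2. These shares are descriptions of 1 library each and were not tested.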
